A study of Mus musculus with 27 samples.

Results

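The effect of acetaminophen (APAP) on transcript levels was compared between an early and a late time in TAMH cells, a hepatocyte line from mice carrying a transforming growth factor alpha transgene. The measure was the interaction: APAP minus control at 24 h, less APAP minus control at 2 h, on the log2 scale. Its estimate rests on 12 of the study's 27 arrays, 3 in each of 4 groups: APAP at 2 mM for 2 h, control medium for 2 h, APAP at 2 mM for 24 h and control medium for 24 h. Standard errors and p-values take the spread from all 27 arrays. All cultures, controls included, were grown in serum-free medium with dexamethasone, nicotinamide, insulin, transferrin and selenium, so the controls also aged in that medium between the 2 times. Arrays are labelled P30, P31 and P32 within each group, numbers that may be passages but are not said to be. Cells were used at passages 25 to 35 and grown in 2 dishes per treatment, but whether the arrays represent separate cultures is not stated, so p-values measure only the spread between these samples, which may be technical. The series title puts the study's question to the mitogen-activated protein (MAP) kinases.

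In liver cells a part of the APAP dose is oxidised to a reactive quinone imine, which binds glutathione and, once glutathione runs short, proteins. This is followed in hepatocytes by stress kinase signalling, with Jun N-terminal kinase as the best known branch, and by induction of immediate early transcription factors within hours. An interaction asks which transcripts respond early and which late. Because it is a difference of differences, a gene can score by moving in the APAP cultures, in the control cultures, or in both, and each gene below is described by which of these moved.

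The interaction differed from 0 at an adjusted p under 0.05 for 71 of 19938 genes, which is 0.356% of the genes tested. Of these 34 (0.171%) were higher at 24 h than at 2 h relative to control and 37 (0.186%) were lower. The lower genes included 5 of 19 cholesterol synthesis genes. Among the 71 genes the alpha-arrestin Arrdc3, the secreted enzyme Pm20d1, collagen type XII and the pyruvate dehydrogenase kinase Pdk4 had the largest positive values. Sizes were modest: the median size among the 71 was 0.74 log2 units, the largest was a ratio of 3.57, and 5 genes, all higher, passed 2-fold. Before adjustment, p was under 0.05 for 1886 genes, 808 of them (4.05%) higher and 1078 (5.41%) lower. Of the 71 genes, 20 remained called whichever of the 12 arrays was left out, and 4 (Scd2, Rev1, Zfp382 and Cast) were called in none of these 12 fits. The count depended on single arrays: it was 51 to 66 without 1 of the 3 APAP arrays at 24 h, 26 to 47 without any 1 of the other 9 arrays, with the lowest count without APAP 2 h array 31, and 0, 8 and 32 without every array numbered 30, 31 and 32, where the 0 stands beside 1058 genes with p under 0.05 before adjustment.

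Between 2 h and 24 h the APAP arrays changed far more widely than the controls. In the APAP arrays 1091 genes (5.47%) rose and 1883 (9.44%) fell, and in the control arrays 102 (0.512%) rose and 125 (0.627%) fell. Among the 71 genes the APAP change alone passed the test in 62 (27 higher and 35 lower), the control change alone in 2 (Egr1 and H2aw), both changes in 6 (Arrdc3, Col12a1, Arap2, Ces2e, H4c8 and Stard4) and neither in 1 (H2ac15). This split depends in part on the threshold, since p-values were adjusted separately for each change. With more genes called in the APAP arrays, a change of equal size passed more easily there. Zswim8, for one, changed by 0.28 in APAP arrays (adjusted p = 0.0166) and by -0.25 in controls (adjusted p = 0.111). The APAP change made up the larger part of the interaction in 66 of the 71 genes, and its median share was 101%. In the other 5 it made up the smaller part: 42.8% for H4c8, 43.3% for H2ac15, 36.2% for Arrdc3, 28.5% for H2aw and -10.4% for Egr1. The APAP and control arrays at 24 h did not overlap in 70 of the 71 genes, against 27% of all genes, and the APAP arrays at 24 h and 2 h did not overlap in 65, against 29.3% of all genes. These last figures follow in part from the choice of the genes by the interaction.

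**Figure D1:**
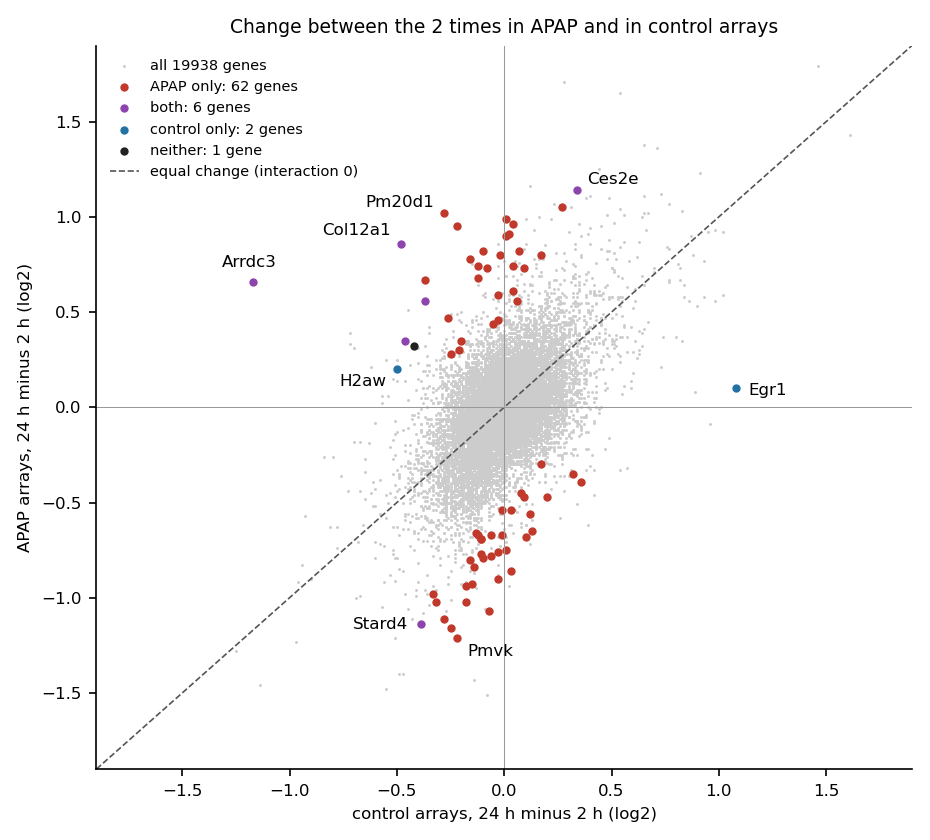
Change from 2 h to 24 h in control arrays (horizontal axis, log2) and in APAP arrays (vertical axis, log2) for all 19938 genes in grey and the 71 called genes in colour, by which change passed the test. Most coloured points lie far from 0 on the vertical axis alone, while Arrdc3 lies at a control change of -1.17 and Egr1 at a control change of 1.08.

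At 2 h APAP differed from control in 136 genes (0.682%), with 62 higher (0.311%) and 74 lower (0.371%). At 24 h it differed in 1860 genes (9.33%), with 670 higher (3.36%) and 1190 lower (5.97%). Of the 71 genes 66 were called for the APAP effect at 24 h and not at 2 h, H4c8 and H2aw at 2 h alone, Egr1 and H2ac15 at both times with the larger effect at 2 h, and Adamts1 at neither. For Adamts1, a secreted metalloprotease, the effect was 0.37 at 2 h and -0.33 at 24 h, and the interaction was -0.70 ± 0.16 (standard error, as for every value after ± below, with 3 arrays per group). This interaction was called at an adjusted p of 0.0446. It kept the call in 1 of the 12 fits with an array left out (adjusted p up to 0.137).

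**Figure D2:**
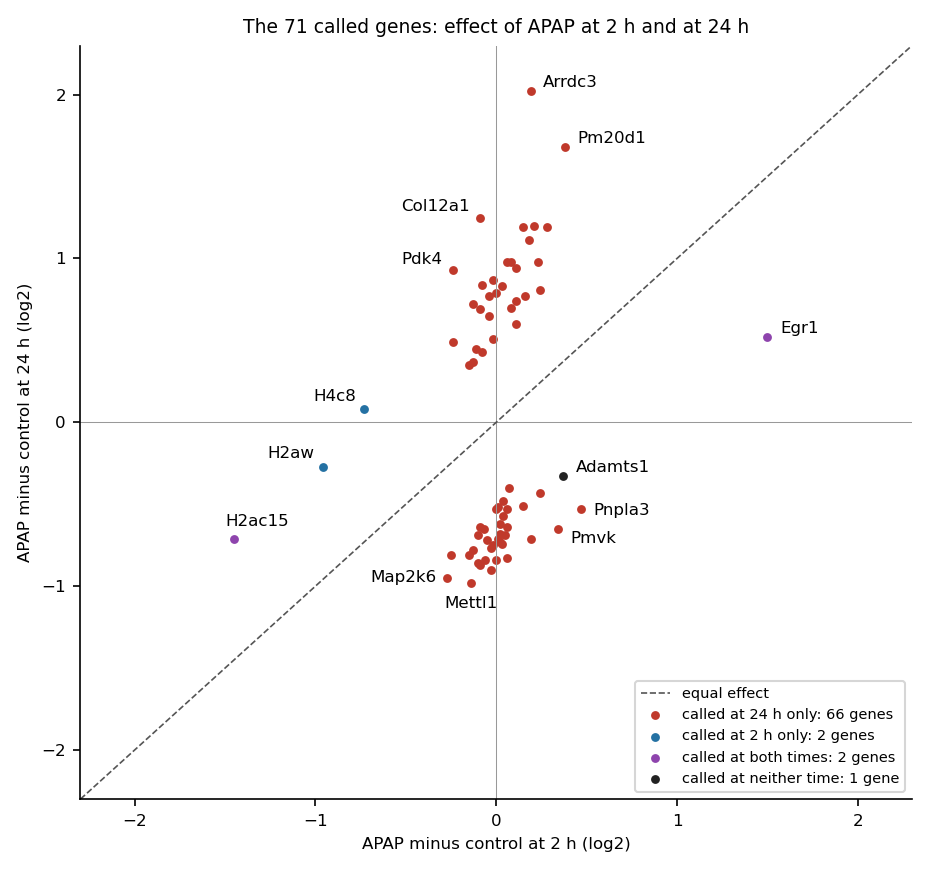
Effect of APAP (APAP minus control, log2) at 2 h on the horizontal axis and at 24 h on the vertical axis for the 71 called genes, coloured by the time at which the effect itself was called. The 66 genes called at 24 h alone lie between -0.27 and 0.47 on the horizontal axis, and Egr1, H4c8, H2aw and H2ac15 lie far from it.

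Hepatocyte markers ranked high among all genes. Of 27 hepatocyte markers 24 lay above the median of all genes, with a median rank at the 95.5th percentile, while the median ranks of macrophage, endothelial and fibroblast markers were at the 21.1th, 28.2th and 45.3th percentiles. Biliary and progenitor markers ranked high as well, with a median at the 72.5th percentile and 6 of 8 above the median of all genes. These 8 genes averaged 8.32 to 8.55 in the APAP arrays at 24 h and 8.77 to 8.91 in the controls at 24 h, a lower level without overlap, and their part in the results was not tested. No gene of these 5 marker lists was called for the interaction, beside 0.356% of all genes. At an unadjusted p under 0.05 there were 1 biliary and 1 endothelial marker lower and 1 hepatocyte marker higher. Over all genes 5.41% were lower and 4.05% higher by that measure. The 3 APAP arrays at 24 h resembled each other least, with correlations of 0.9922 to 0.9955 across genes against 0.996 to 0.9974 in the other 3 groups. These are bulk samples, so fewer cells of a kind and less RNA per cell cannot be told apart.

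Most cholesterol synthesis genes were lower with APAP at 24 h, and the APAP arrays changed more than the controls. The pathway builds farnesyl diphosphate from acetyl-CoA by way of mevalonate, condenses it to squalene, and converts squalene to cholesterol, and its genes are known to be transcribed together under sterol regulatory element binding proteins (SREBPs), which work with the CCAAT-binding factor NF-Y. Of 19 cholesterol synthesis genes measured, 5 were called lower and 0 higher, beside 0.186% and 0.171% of all genes. At an unadjusted p under 0.05, 16 were lower, beside 5.41% of all genes. The list's median interaction was -0.71 against -0.01 over all genes. The median change from 2 h to 24 h was -0.87 in the APAP arrays and -0.15 in the controls. In the APAP arrays 15 of the 19 fell, beside 9.44% of all genes, and in the controls 0 passed the test. Against control, 0 of the 19 were called at 2 h. At 24 h 14 were called lower and 1 higher, beside 5.97% and 3.36% of all genes.

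Fdps, which makes farnesyl diphosphate, stood at 11.24, 11.28 and 11.22 in the APAP arrays at 2 h and at 11.2, 11.24 and 11.21 in the controls. At 24 h it stood at 10.38, 10.22 and 10.36 with APAP and at 11.08, 11.06 and 11.05 without. All 3 late APAP arrays therefore lay below all other arrays, and the early groups overlapped. The interaction was -0.78 ± 0.11 (adjusted p = 0.000466), with a change of -0.93 in APAP arrays and -0.15 in controls.

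Pmvk, the phosphomevalonate kinase, gave 9.63, 9.79 and 9.53 with APAP and 9.41, 9.29 and 9.23 in controls at 2 h. At 24 h the values were 8.59, 8.31 and 8.4 with APAP and 9.11, 9.07 and 9.08 in controls. The APAP arrays were thus above all controls early and below all controls late, and the interaction of -0.99 ± 0.14 (adjusted p = 0.00054) sums an effect of 0.34 at 2 h, which did not pass the test (adjusted p = 0.149), and one of -0.65 at 24 h. Idi1, the isopentenyl diphosphate isomerase, read 10.82, 10.36 and 10.98 in the late APAP arrays against 11.4, 11.58 and 11.29 in late controls, after 11.83, 11.93 and 11.87 against 11.6, 11.68 and 11.76 at 2 h. Its interaction was -0.90 ± 0.17 (adjusted p = 0.0139), and a second probe set gave -0.94. Nsdhl, which removes a methyl group on the way to cholesterol, had an interaction of -0.71 ± 0.12 (adjusted p = 0.00475) and read 10.57 to 10.88 in late APAP arrays against 11.35 to 11.46 in late controls.

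Fdft1, squalene synthase, fell in APAP arrays from 11.73, 11.78 and 11.72 to 10.73, 10.63 and 10.53, while controls read 11.73, 11.73 and 11.78 early and 11.48, 11.44 and 11.48 late. Its interaction was -0.83 ± 0.17 (adjusted p = 0.0276) and -0.92 on a second probe set. The groups did not overlap at 24 h, but the call was kept in 1 of the 12 fits with an array left out, the one without APAP 24 h array 30, and the adjusted p reached 0.0749 in the others. Stard4, a cholesterol carrier of the cytosol, fell in both sets of arrays, by 1.14 with APAP and by 0.39 in controls, and its interaction was -0.75 ± 0.12 (adjusted p = 0.00247). Tmem97, an endoplasmic reticulum protein that binds sterols, had the smallest called interaction in the group, at -0.48 ± 0.10 with -0.54 on a second probe set, and kept its call in 2 of 12 such fits (adjusted p up to 0.133).

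Several uncalled enzymes of the pathway had point estimates of similar size with wider error. Hmgcs1, which makes HMG-CoA, had an interaction of -0.93 ± 0.23 (adjusted p = 0.0702), and Mvd and Lss, the mevalonate diphosphate decarboxylase and lanosterol synthase, had -0.92 ± 0.23 and -0.90 ± 0.24 (adjusted p = 0.0785 and 0.102). These 3 genes also had lower point estimates in the controls, by 0.47 to 0.55, without passing the test there. The 2 genes nearest 0 were Ggps1 at -0.04 and Tm7sf2 at 0.09. The transcription factor genes Srebf1 and Srebf2 had interactions of -0.47 ± 0.11 and -0.52 (adjusted p = 0.0581 and 0.0959).

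**Figure D3:**
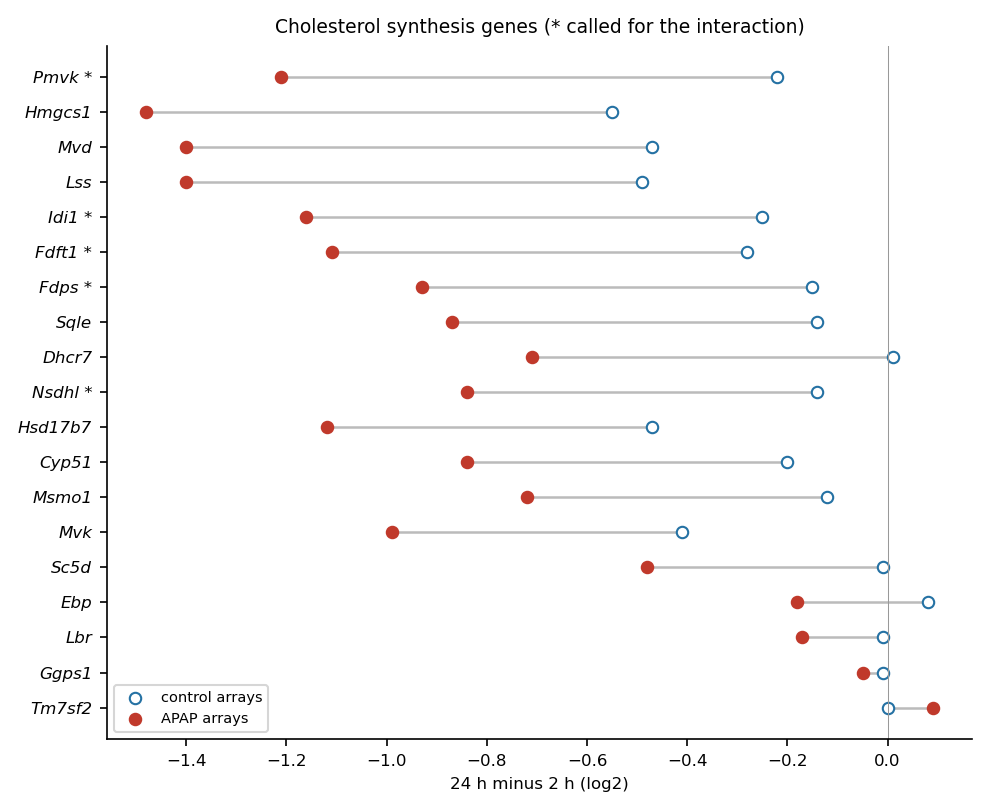
Change from 2 h to 24 h (log2) of the 19 cholesterol synthesis genes in APAP arrays (filled) and control arrays (open), ordered by interaction, with an asterisk for the 5 called. The filled points of 15 genes lie at -0.48 or lower, and the open points lie between -0.55 and 0.08.

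The promoters of this group are shown because the genes moved together. RefSeq windows on GRCm38.p6, from 250 before to 50 after a transcript start, were matched by symbol for 16 of the 19 genes (19 windows). Both strands were searched for TCACNCCAC, a form of the sterol regulatory element, for CCAAT, the NF-Y motif, and for CACGTG, the E-box. CCAAT was present for 16 of the 16 genes, against 11096 of 27025 genes (41.1%), and in 16 of 19 windows, against 37.4% of all windows. TCACNCCAC was present for 1 of 16 (6.25%), against 1.44% of all genes, and CACGTG for 3 of 16 (18.8%), against 8.09%. Such matches describe letters and not bound sites, and the absence of a match says only that these letters are not in the window. The 250 bases before the start are printed 5′ to 3′ for the called genes Idi1 (chr13:8885356-8885605, plus strand), Nsdhl (chrX:72918271-72918520, plus strand), Pmvk (chr3:89454291-89454540, plus strand, the upstream of 2 starts) and Tmem97 (chr11:78550736-78550985, minus strand), with CCAAT or its reverse complement in capitals. Tmem97 is not one of the 19 synthesis genes. The called genes Fdps, Fdft1 and Stard4 had no window. Of the called fatty acid genes taken up below, not printed, Pnpla3 carries 1 CCAAT match in this stretch, Elovl6 carries 0, and Scd2 had no window.
Idi1: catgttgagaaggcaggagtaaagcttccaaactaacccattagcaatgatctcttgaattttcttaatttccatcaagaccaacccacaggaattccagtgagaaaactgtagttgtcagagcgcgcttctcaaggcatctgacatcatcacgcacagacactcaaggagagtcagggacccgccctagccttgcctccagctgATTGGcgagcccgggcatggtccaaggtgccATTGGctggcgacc
Nsdhl: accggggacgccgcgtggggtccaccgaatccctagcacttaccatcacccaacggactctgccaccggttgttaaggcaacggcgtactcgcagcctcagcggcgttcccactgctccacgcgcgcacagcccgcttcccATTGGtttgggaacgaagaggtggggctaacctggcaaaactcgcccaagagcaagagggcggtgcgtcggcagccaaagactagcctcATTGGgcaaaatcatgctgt
Pmvk: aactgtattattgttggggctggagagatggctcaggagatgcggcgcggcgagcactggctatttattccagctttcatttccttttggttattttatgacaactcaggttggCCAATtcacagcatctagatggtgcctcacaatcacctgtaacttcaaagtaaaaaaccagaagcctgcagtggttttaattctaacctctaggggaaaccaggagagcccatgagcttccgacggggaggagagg
Tmem97: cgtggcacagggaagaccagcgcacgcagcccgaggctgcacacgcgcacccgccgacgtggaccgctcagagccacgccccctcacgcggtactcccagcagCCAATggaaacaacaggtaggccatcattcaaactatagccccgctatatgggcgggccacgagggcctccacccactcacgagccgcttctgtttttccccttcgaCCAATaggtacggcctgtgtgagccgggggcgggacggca
Idi1, Nsdhl and Tmem97 each carry 2 matches in the printed stretch and Pmvk carries 1, while the stretch before the other Pmvk start, not printed, carries 0.

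The list for fatty acid synthesis and storage joins enzymes that SREBPs also drive with lipid droplet and lipase genes. Of 31 measured, 3 were called lower and 0 higher, beside 0.186% and 0.171% of all genes. The median interaction was -0.30, with a median change of -0.25 in APAP arrays and -0.02 in controls. In the APAP arrays 15 fell and 1 rose, beside 9.44% and 5.47% of all genes. Against control 13 of the 31 were lower at 24 h, beside 5.97% of all genes, with none called at 2 h. Pnpla3, a lipid droplet acyl hydrolase, read 8.92, 9.08 and 8.88 with APAP and 8.54, 8.52 and 8.4 in controls at 2 h, and 7.87, 8 and 7.8 with APAP and 8.54, 8.48 and 8.22 in controls at 24 h. The APAP arrays lay above the controls early and below them late. Its interaction of -1 ± 0.20 (adjusted p = 0.0264) was the most negative of the 71, and it kept the call in 5 of the 12 fits with an array left out (adjusted p up to 0.0802).

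Elovl6, which elongates palmitate, read 9.7 to 9.97 in late APAP arrays against 10.53 to 10.75 in late controls and had overlapping groups at 2 h. The interaction was -0.89 ± 0.19 (adjusted p = 0.0324), kept in 2 of 12 such fits (up to 0.107). Scd2, a stearoyl-CoA desaturase, had -0.54 ± 0.12 (adjusted p = 0.0454) and was called in none of them. The control changes were 0.03 for Elovl6 and -0.01 for Scd2. Scd1 stood just outside the threshold at -0.64 ± 0.15 (adjusted p = 0.0571). Pecr, a peroxisomal enoyl-CoA reductase outside the list, moved likewise at -0.66 ± 0.13.

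The remaining called genes are taken up by known role for order only, since these groupings were made after the calls and were not tested. In each of the next 10 lower genes the APAP change alone passed the test. Pold2, a subunit of DNA polymerase delta, read 10.08, 10.24 and 9.95 with APAP at 2 h and 9.18, 9.03 and 9.25 at 24 h, while controls read 10.08, 10.08 and 10.05 and then 9.92, 9.82 and 9.91. The late APAP arrays lay below every other array, and the interaction was -0.76 ± 0.13 (adjusted p = 0.00495). It was the only called gene of 52 for DNA replication and the G1/S transition, beside 0.356% of all genes. The list's median interaction was -0.13. Of these 52 genes 27 fell in the APAP arrays and 0 in controls, beside 9.44% and 0.627% of all genes. Mettl1, which methylates transfer RNA, had -0.84 ± 0.18, the spermidine synthase Srm -0.72 ± 0.16 and the histone variant H2ax -0.65 ± 0.15. The mitochondrial ribosomal protein Mrps27 had -0.58, the translation factor-like Bzw2 -0.58, the chaperone-associated Fkbp4 -0.64, the chromosome-associated Rcc2 -0.55, the mitochondrial import-related Mtx2 -0.52 and the threonine-breakdown enzyme Gcat -0.70. Of these 9 genes other than Pold2 none kept the call in all 12 fits with an array left out, and Mtx2 kept it in most, at 8 of 12.

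The next 6 lower genes encode secreted or membrane proteins and an esterase, and in each the APAP change alone passed the test. Of the 27 hepatocyte markers 0 were called, with a median interaction of 0.02. As 0.356% of all genes were called, a count of 0 in so short a list says little. Serpind1, the liver-made thrombin inhibitor heparin cofactor II, read 9.02, 9.25 and 8.74 in late APAP arrays against 9.93, 9.81 and 9.79 in late controls, after 9.62 to 9.67 against 9.6 to 9.78 at 2 h. The interaction was -0.78 ± 0.15 (adjusted p = 0.0169), lost without control 24 h array 30, APAP 2 h array 31 or control 2 h array 31 (adjusted p up to 0.0657). The tight junction gene Cldn3 had -0.77 ± 0.16, the retinol transporter Stra6 -0.74 ± 0.14, the tetraspanin-like Tm4sf4 -0.67 ± 0.15, the carboxylesterase Ces1b -0.67 ± 0.15 and the membrane protein Emp3 -0.58 ± 0.13. With an array left out, Cldn3 kept its call in 4 of the 12 fits, Ces1b and Emp3 in 3 each and Tm4sf4 in 1. Stra6 and Ces1b differ from the rest in that the controls had point estimates of 0.36 and 0.32 upward, which did not pass the test. Stra6 lost its call only without control 2 h array 32 (adjusted p = 0.054). Further lower genes, all through the APAP arrays, were the uncharacterised 2010204K13Rik (-0.87), the membrane protein gene Tlcd2 (-0.73), the interferon-linked Nmi (-0.60) and the ciliary transition zone genes Cc2d2a (-0.56) and Tmem17 (-0.53). 2010204K13Rik lost its call only without APAP 2 h array 31 (adjusted p = 0.0691). Tmem17 kept its call in 5 of the 12 such fits, Nmi and Cc2d2a in 2 each and Tlcd2 in 1.

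Among genes of kinase signalling and cell death, 1 of 39 MAP kinase and upstream kinase genes and 1 of 19 BCL2 family genes were called. The share over all genes was 0.356%. Map2k6, the kinase that activates p38 MAP kinases, read 9.04, 8.94 and 8.97 with APAP and 9.24, 9.31 and 9.21 in controls at 2 h, and 8.55, 8.43 and 8.29 with APAP and 9.48, 9.36 and 9.27 in controls at 24 h. The APAP arrays were below the controls at both times and further below at 24 h. The interaction was -0.68 ± 0.14 (adjusted p = 0.0325), from a change of -0.56 in APAP arrays and 0.12 in controls, and it was kept in 2 of the 12 fits with an array left out (adjusted p up to 0.0881). The other 38 of 39 MAP kinase and upstream kinase genes were not called, and the list's median was 0.01. Of 18 MAP kinase phosphatase and feedback genes none was called, beside 0.356% of all genes. At an unadjusted p under 0.05, 0 were higher and 1 lower, near the shares of 4.05% and 5.41% over all genes. Bok, a BCL2 family member linked to apoptosis, had an interaction of -0.76 ± 0.15 (adjusted p = 0.0165), with late APAP arrays at 8.36 to 8.68 against controls at 9.27 to 9.5, and kept its call in 8 of 12 such fits.

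The largest interaction belonged to Arrdc3, an adaptor that brings ubiquitin ligases to membrane receptors, and more of it came from the controls than from the APAP arrays. Controls read 8.94, 9.02 and 9.29 at 2 h and 7.94, 7.96 and 7.83 at 24 h. APAP arrays read 9, 9.09 and 9.72 at 2 h and 9.63, 9.75 and 10.42 at 24 h. The late controls lay below every other array, and the APAP arrays of the 2 times overlapped. The control change was -1.17 (adjusted p = 0.00236), the APAP change 0.66 (adjusted p = 0.0154) and the interaction 1.83 ± 0.26 (adjusted p = 0.00054), with a 95% interval from 1.3 to 2.37.

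Pm20d1, a secreted enzyme that joins fatty acids to amino acids, had the smallest adjusted p of the 71 genes. It read 7.25, 7.48 and 7.37 with APAP and 6.91, 7.12 and 6.93 in controls at 2 h, and 8.39, 8.34 and 8.43 with APAP and 6.61, 6.78 and 6.72 in controls at 24 h. APAP arrays lay above controls at both times, though the effect of 0.38 at 2 h did not pass the test, and the effect of 1.68 at 24 h did. The interaction was 1.3 ± 0.15 (adjusted p = 6.53e-05), with an APAP change of 1.02 and a control change of -0.28 that did not pass.

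Col12a1, a fibril-associated collagen, moved in opposite directions in the 2 sets of arrays. APAP arrays went from 7.64, 7.87 and 7.62 to 8.69, 8.35 and 8.66, and controls from 7.71, 8.07 and 7.62 to 7.23, 7.54 and 7.19. The late groups did not overlap and the early ones did. The APAP change was 0.86, the control change -0.48 (adjusted p = 0.0495) and the interaction 1.34 ± 0.17 (adjusted p = 0.000224). Plod2, which hydroxylates lysines of collagen, had 0.75 ± 0.16 through the APAP arrays alone, kept in 3 of the 12 fits with an array left out. Arap2, a regulator of the small GTPase Arf6, shared the opposite pattern of Col12a1, with 0.56 in APAP arrays, -0.37 in controls and an interaction of 0.93 ± 0.13 (adjusted p = 0.00054).

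Several rising genes handle lipids, carnitine or fuel choice. Pdk4, which inhibits pyruvate dehydrogenase and so spares glucose, read 8.95, 8.84 and 8.92 with APAP and 9.28, 9.01 and 9.12 in controls at 2 h, and 9.75, 9.95 and 9.85 with APAP and 9.19, 8.92 and 8.64 in controls at 24 h. The late APAP arrays stood above every other array, and the interaction was 1.17 ± 0.19 (adjusted p = 0.00247). Pdk4 was the only called gene of 31 for PPAR alpha and fatty acid oxidation, beside 0.356% of all genes, and the list's median was 0.08. Cpt1c, the carnitine palmitoyltransferase 1 form best known from brain, had 0.99 ± 0.18, the carnitine transporter Slc22a5 0.70 ± 0.15, and Bscl2 (seipin), which shapes lipid droplets, 0.94 ± 0.15. Cpt1c and Bscl2 kept their calls in all 12 fits with an array left out, and Slc22a5 in 5.

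Enzymes that act on foreign compounds and esters followed. Ces2e, a carboxylesterase, read 9.75, 9.82 and 9.82 with APAP and 9.79, 9.7 and 9.81 in controls at 2 h, and 10.94, 11.06 and 10.79 with APAP and 10.14, 10.12 and 10.06 in controls at 24 h. It rose in both sets of arrays, by 1.14 and 0.34, and the interaction was 0.80 ± 0.10 (adjusted p = 0.00013). Ces2g, of the same family, had 0.78 ± 0.15 with an APAP change of 1.05 and a control change of 0.27 that did not pass, and lost its call only without control 2 h array 32 (adjusted p = 0.0611). Carboxylesterase 2 genes are closely related copies in the mouse, so part of their signal could be shared. Ephx1, the microsomal epoxide hydrolase, had 0.63 ± 0.14 (adjusted p = 0.0369) and kept the call in 2 of the 12 fits with an array left out (up to 0.0949). It was the only call among 40 NRF2 and glutathione genes, beside 0.356% of all genes, and the list's median was -0.03. None of 46 cytochrome P450 genes of families 1 to 4 was called, beside 0.356% of all genes. At an unadjusted p under 0.05, 3 were higher and 2 lower, near the shares of 4.05% and 5.41% over all genes. Cyp2e1, an enzyme that oxidises APAP, read 5.08 to 5.27 in the APAP arrays and 5.09 to 5.29 in controls over both times. These values lie under the mean of 6 asked of the largest genes, so little can be read from them.

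For the next 8 higher genes the APAP change alone passed the test. Notch3, a Notch receptor, read 7.84, 7.8 and 7.71 with APAP and 7.4, 7.63 and 7.48 in controls at 2 h, and 8.9, 8.61 and 8.7 with APAP and 7.52, 7.55 and 7.57 in controls at 24 h. The late APAP arrays stood above all others, and the interaction was 0.92 ± 0.15 (adjusted p = 0.00254). Gria3, a glutamate receptor subunit, had 0.92 ± 0.17, the kinase gene Cdc42bpg 0.82 ± 0.11, the exocyst subunit Exoc4 0.81 ± 0.11 and the polarity scaffold Mpp7 0.79 ± 0.13 (0.81 on a second probe set). These 5 genes kept their calls in all 12 fits with an array left out. Slc4a11, a membrane ion transporter, had 1.05 ± 0.20 and lost its call only without control 2 h array 31 (adjusted p = 0.0556). Its APAP change was 0.67, and its controls had a point estimate of -0.37, which did not pass the test. The diacylglycerol kinase Dgka had 0.89 ± 0.19, kept in 3 of 12, and the transmembrane Plxdc2 0.86 ± 0.16, kept in 10.

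Perp, a p53-induced membrane protein of desmosomes, was the 1 called gene of 30 p53 targets, beside 0.356% of all genes. It read 10, 10.1 and 9.86 with APAP and 9.95, 9.83 and 9.72 in controls at 2 h, and 10.6, 10.39 and 10.72 with APAP and 9.74, 9.79 and 9.86 in controls at 24 h. The late APAP arrays stood above all others. The interaction was 0.62 ± 0.12 (adjusted p = 0.0156), lost without control 24 h array 30, APAP 2 h array 32 or control 2 h array 30 (adjusted p up to 0.0555). The list as a whole leaned the same way, which was not tested. At an unadjusted p under 0.05, 15 of 30 were higher and 1 lower, beside 4.05% and 5.41% of all genes. The median was 0.30, and the APAP arrays changed by a median of 0.33 against -0.02 in controls. Against control 7 of the 30 were higher at 2 h and 21 at 24 h, beside 0.311% and 3.36% of all genes. Fas, a death receptor, stood just outside the threshold at 0.62 ± 0.14 (adjusted p = 0.0546), rising by 1.1 in APAP arrays and by 0.49 in controls, and Mdm2, which degrades p53, had 0.71 ± 0.19 (adjusted p = 0.123) with effects of 0.70 at 2 h and 1.40 at 24 h. Btg2 and Plk2, p53 targets with effects of 1.38 and 1.02 at 2 h, had interactions of -0.01 and 0.29 that did not pass. Rev1, a polymerase that copies past DNA lesions, had 0.49 ± 0.11 and the spindle-associated Psrc1 0.89 ± 0.19, kept in none and in 3 of the 12 fits with an array left out.

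The other higher genes were the calpain inhibitor Cast (0.55), the cytoskeletal linker Dst (0.50), the lysosomal Pld3 (0.63), the membrane protein gene Prrg4 (0.57), the zinc finger genes Zfp382 (0.51), Zswim8 (0.53) and Zzef1 (0.49), and the uncharacterised 1700128E19Rik (0.73). In each the APAP change alone passed the test, and its share of the interaction was lowest for Zswim8 (52.3%) and Zfp382 (59.5%). In these 8 genes the adjusted p ranged up to 0.0464, and no more than 5 of the 12 fits with an array left out kept the call. 1700128E19Rik was the dimmest of the 71, with a highest group mean of 5.42.

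**Figure D4:**
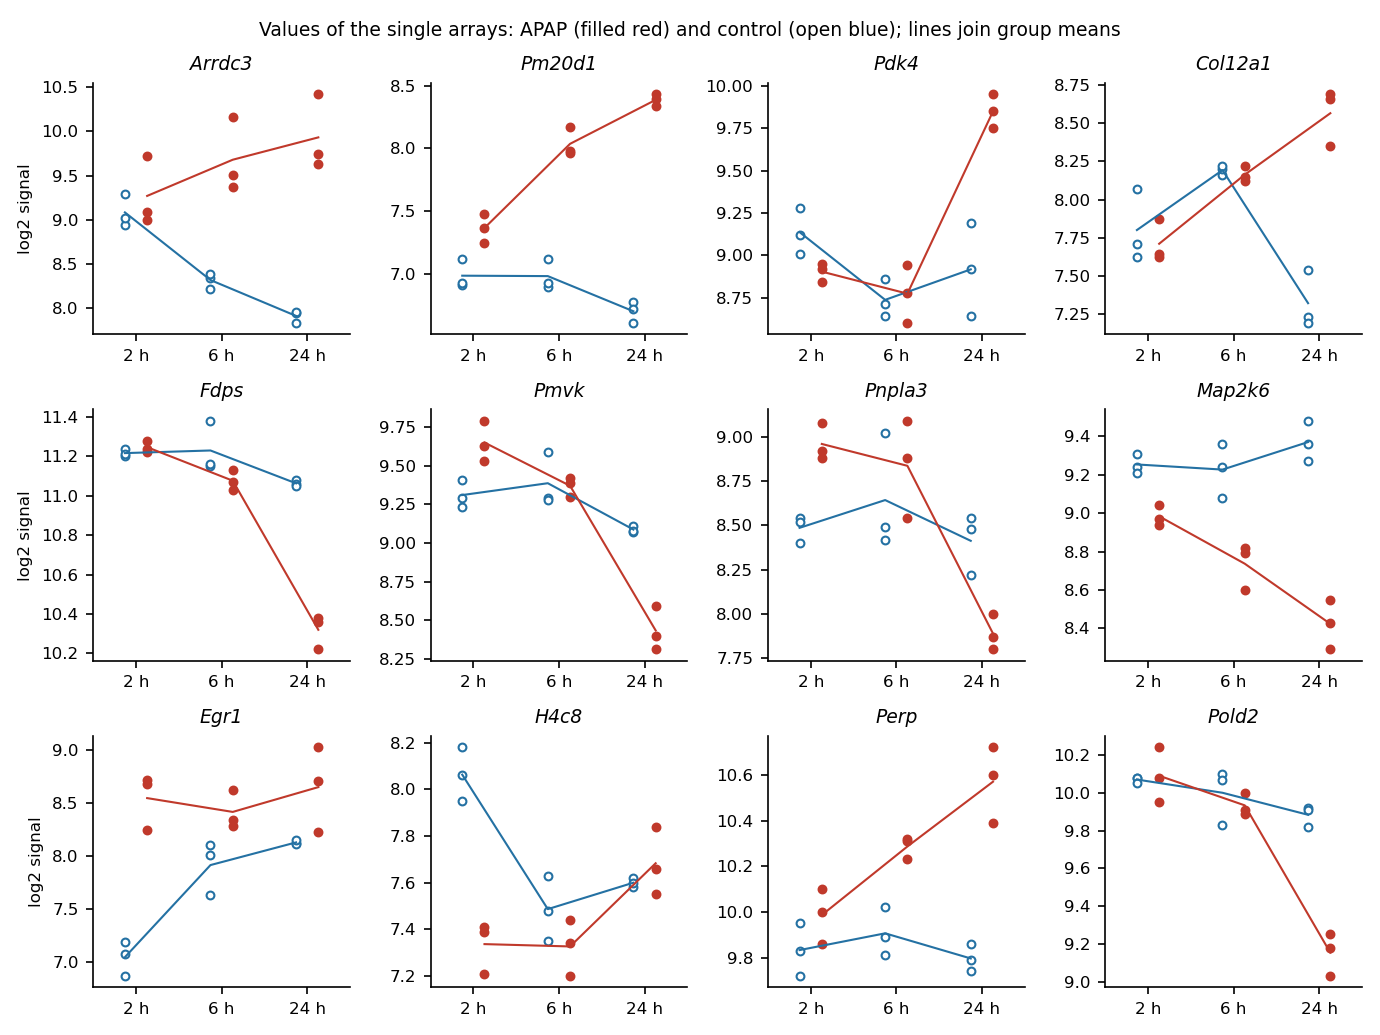
Log2 signal of 12 genes on each array at 2, 6 and 24 h, with APAP in filled red and control in open blue, and lines through the group means. Fdps, Pmvk, Pnpla3 and Pold2 show late APAP arrays below all others, Arrdc3 shows falling controls, Egr1 shows controls rising toward APAP arrays that stay above them, and H4c8 shows controls falling to the APAP level.

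Egr1, an immediate early transcription factor induced by MAP kinase signalling, was the clearest case of an interaction carried by the controls. APAP arrays read 8.24, 8.71 and 8.68 at 2 h and 8.22, 9.02 and 8.7 at 24 h, and overlapped. Controls read 7.19, 6.87 and 7.08 at 2 h and 8.12, 8.11 and 8.15 at 24 h, without overlap. The effect of APAP was 1.5 at 2 h and 0.52 at 24 h, the control change 1.08 (adjusted p = 0.00137), the APAP change 0.10 (adjusted p = 0.753), and the interaction -0.98 ± 0.22 (adjusted p = 0.0454). The call was kept in 2 of the 12 fits with an array left out (adjusted p up to 0.136).

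Egr1 was the 1 called gene of 35 immediate early genes, beside 0.356% of all genes, and the list's median interaction was -0.01. At an unadjusted p under 0.05, 2 were higher and 5 lower, beside 4.05% and 5.41% of all genes. In the controls 4 of the 35 rose and 0 fell, beside 0.512% and 0.627% of all genes. Besides Egr1 these included Ier3 and Zfp36, with control changes of 0.73 and 0.64 and uncalled interactions of -0.53 and -0.32. Atf3, a stress-induced transcription factor, had effects of 1.80 at 2 h and 2.00 at 24 h and an interaction of 0.20 ± 0.34, with a 95% interval from -0.50 to 0.91. Jun had effects of 1.33 and 1.69 and an interaction of 0.35 ± 0.30 (interval -0.27 to 0.97), and Fos effects of 0.81 and 0.41 and an interaction of -0.40 ± 0.17 (adjusted p = 0.424). Ddit3, Gadd45a, Gadd45b, Gadd45g and Dusp1, which encode stress-induced regulators, had interactions between -0.13 and 0.27, none called. The intervals for Atf3 and Jun include 0.74, the median size among the 71 genes. Genes of glutathione defence and growth in the same panel were not called either, with interactions of 0.20 for Hmox1, -0.26 for Nqo1, 0.32 for Gclc, 0.05 for Myc, -0.03 for Ccnd1 and -0.46 for Bub1b, and Alb and Tgfa stood at 0.02 and 0.07. Nqo1 was dim, with group means of 5.06 to 5.34, so little can be read from its value.

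Replication-dependent histone genes, whose messenger RNA is made in S phase, gave positive interactions from an early loss that was smaller later. Of 20 measured, 13 were called lower against control at 2 h and 7 at 24 h, beside 0.371% and 5.97% of all genes. None was called higher at either time. The median change between the times was -0.50 in the controls, with 6 called lower, beside 0.627% of all genes, and 0.10 in the APAP arrays. The median interaction was 0.51, with 2 called higher and 0 lower, beside 0.171% and 0.186% of all genes. At an unadjusted p under 0.05, 10 were higher, beside 4.05% of all genes. H4c8 read 7.21, 7.39 and 7.41 with APAP and 8.06, 7.95 and 8.18 in controls at 2 h, and 7.55, 7.66 and 7.84 with APAP and 7.58, 7.62 and 7.6 in controls at 24 h. The groups were apart early and overlapped late. The interaction was 0.81 ± 0.14 (adjusted p = 0.00374), from 0.35 in APAP arrays and -0.46 in controls, both called.

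H2ac15 had effects of -1.45 at 2 h and -0.71 at 24 h and an interaction of 0.74 ± 0.16, with neither change alone past the test (0.32 and -0.42). H2aw, a histone H2A gene outside the list, had an interaction of 0.70 ± 0.14 from a control change of -0.50. They kept their calls in 3 and 4 of the 12 fits with an array left out. Not every histone gene followed, as H1f1 and H1f2 had interactions of 0.00 and -0.03 and fell equally in both sets of arrays. Histone genes are near-identical copies, and probe sets could share signal between them. Txnip, an alpha-arrestin relative that answers to glucose, was not called at 1.11 ± 0.32 (adjusted p = 0.157).

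The next 3 lists had no called gene but more falling members than the share over all genes, which was 9.44% for falling in the APAP arrays and 5.41% for a lower interaction at an unadjusted p under 0.05. Of 31 genes for ATF4 and the integrated stress response, which drives amino acid synthesis and transport, 0 were called, 15 were lower and 1 higher at an unadjusted p under 0.05, and 19 fell in the APAP arrays, with medians of -0.59 there and -0.19 in controls. Of 54 ribosome biogenesis genes 0 were called and 18 were lower at an unadjusted p under 0.05, with 32 falling in APAP arrays and 0 in controls. Of 38 proteasome genes 0 were called and 8 were lower at an unadjusted p under 0.05, with 26 falling in APAP arrays. These counts describe the lists and were not tested against other genes.

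**Figure D5:**
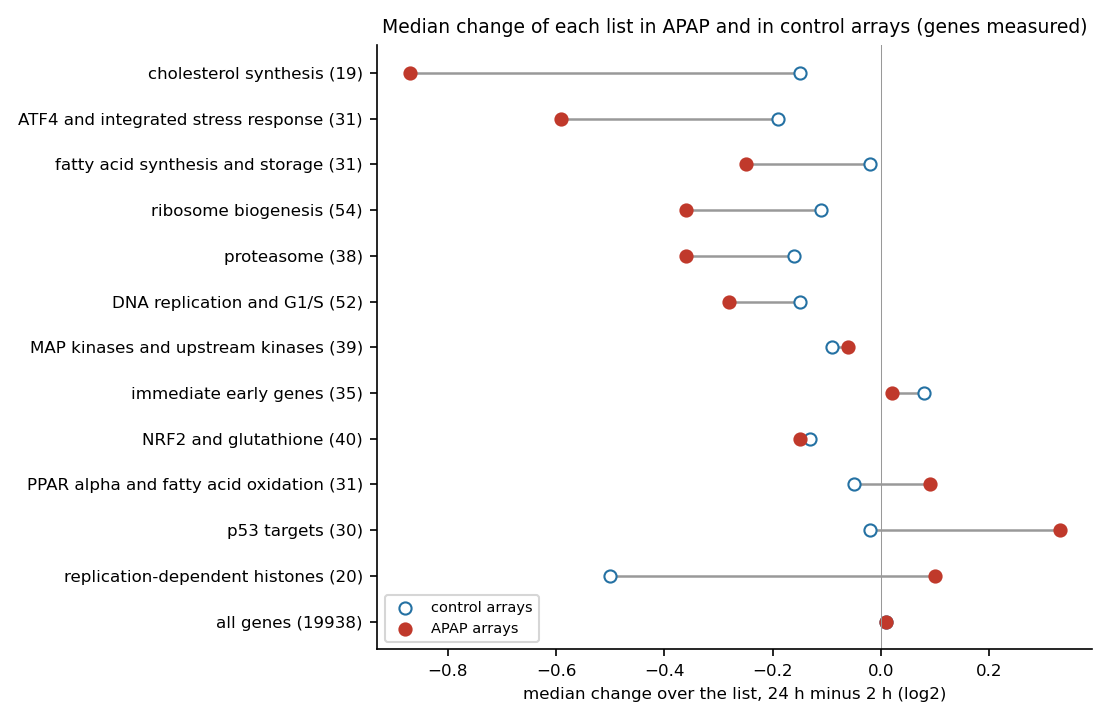
Median change from 2 h to 24 h (log2) over each of 12 gene lists and all genes, in APAP arrays (filled) and control arrays (open), with the number of genes measured. The filled point lies furthest left for cholesterol synthesis (-0.87), and for replication-dependent histones it is the control point that lies away from 0 (-0.50).

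On the arrays at 6 h, which the interaction does not use, 64 of the 66 genes called at 24 h alone lay between the early and the late effect. The genes were chosen for a gap between these effects, so a 6 h effect inside it was likely in advance. APAP differed from control at 6 h in 498 genes (2.5%). Of the 66 genes called at 24 h alone, 23 were called at 6 h and 58 had the same sign at 6 h as at 24 h, where 91.2% of all 1860 genes called at 24 h did so. The 6 h effect was a median of 30.3% of the 24 h effect. Arrdc3 (1.36), Pm20d1 (1.05) and Slc4a11 (1.05) already differed from control at 6 h. Pdk4 and Col12a1, at 0.04 and -0.03, and Fdps, Pmvk, Idi1 and Nsdhl, at -0.15, -0.02, 0.03 and -0.13, did not pass the test at 6 h.

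AMAP, the isomer of APAP with the ring hydroxyl group in the meta position, was given at the same dose of 2 mM for the same times. Its own interaction, against the same control arrays, was called for 0 of 19938 genes (0%), and before adjustment 937 had p under 0.05. The direct test of the difference, the APAP change from 2 h to 24 h less the AMAP change, involves no control array but the same APAP arrays, and 97 genes (0.487%) were called in this 1 pair of compounds, 37 of them among the 71. Ces2e differed most clearly, at 1.29 (95% interval 1.09 to 1.49, adjusted p = 1.39e-08), followed by Gria3 at 1.38 (1.04 to 1.72) and Cdc42bpg at 0.91 (0.69 to 1.13), both with an adjusted p of 6.48e-05, and by Fdps at -0.85 (-1.08 to -0.63). The AMAP interaction was -0.49 for Ces2e, -0.46 for Gria3 and 0.08 for Fdps.

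For other genes the isomers were not told apart. Arrdc3 differed by 1.07 (0.53 to 1.61, adjusted p = 0.0646), with an AMAP interaction of 0.76, and Idi1 by -0.62 (-0.97 to -0.27, adjusted p = 0.122). Emp3 differed by -0.05 (-0.31 to 0.21), Stra6 by -0.17 (-0.45 to 0.12) and 2010204K13Rik by -0.25 (-0.59 to 0.08), with AMAP interactions of -0.53, -0.57 and -0.62. All 3 intervals include 0, and those of Stra6 and 2010204K13Rik reach further below it than that of Emp3.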

How the data were processed

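RNA of TAMH cells was hybridised to 27 Affymetrix Mouse Gene 1.0 ST arrays, 3 for each of APAP, AMAP (both 2 mM) and control at 2, 6 and 24 h. The deposited values are log2 signals, made by the authors with RMA in Affymetrix Expression Console 1.1, per the submitters' processing notes. Of 35557 probe sets 21789 had 1 gene symbol, 1621 several and 12147 none. The brightest probe set was kept per gene, leaving 19938 genes. Array medians lay between 7.25 and 7.36. The number of arrays limits the precision.

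A model of 9 group means on all 27 arrays was fitted with limma 3.58.1 (R 4.3.3, eBayes), with Benjamini-Hochberg adjustment over all genes and a threshold of 0.05. The interaction, the change in APAP and in control arrays, and the effects at each time are contrasts of it. A change counts as moved where its own adjusted p was under 0.05, with p-values adjusted separately for each change. Scripts were tested on simulated data. Same-numbered APAP and control arrays deviated together in all 3 pairs at 2 h but not in all at 24 h or across times, so the numbers were not taken to pair the arrays and no block was used.

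The members and the 36 gene lists were chosen with earlier results of these data known. Genes described in full were the 12 largest each way among called genes with a group mean of at least 6, called list members, a fixed panel, and genes moved in controls only or in neither. The other called genes are named because each was assigned to the arrays that moved, except 1 that is counted but not reported here. Other genes just outside the threshold, list members not called, and the AMAP and 6 h values were chosen after values were seen. Alternatives were the block, other fits, normalizations and filters, and arrays left out.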

Additional observations from a re-analysis of the deposited data

Results flagged for a closer look

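The effect of APAP differed between 24 h and 2 h by the limma interaction test itself for each of the following genes. They are the 12 largest in each direction among called genes with a group mean of at least 6, and some uncalled genes had larger estimates. Higher at 24 h were Arrdc3 (1.83), Col12a1 (1.34), Pm20d1 (1.3), Pdk4 (1.17), Slc4a11 (1.05), Cpt1c (0.99), Bscl2 (0.94), Arap2 (0.93), Gria3 (0.92), Notch3 (0.92), Dgka (0.89) and Psrc1 (0.89). Lower were Pnpla3 (-1), Pmvk (-0.99), Egr1 (-0.98), Idi1 (-0.9), Elovl6 (-0.89), 2010204K13Rik (-0.87), Mettl1 (-0.84), Fdft1 (-0.83), Serpind1 (-0.78), Fdps (-0.78), Cldn3 (-0.77) and Bok (-0.76), all log2 interactions. Arrdc3 and Egr1 stand apart because the control arrays supplied the larger part.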

How the results depend on the processing

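None of the 71 called interactions changed sign under any alternative run, and 20 of the 71 genes were called whichever array was left out. The counts are the unstable part: 71 interaction genes called, 34 interaction genes higher, 37 interaction genes lower and, for which arrays moved, 62 in APAP arrays only. In that order they were 187, 78, 109 and 155 with the replicate block, 447, 171, 276 and 359 with the replicate block within time, and 297, 128, 169 and 247 with array weights. The random replicate block called 112, with 63 lower and 95 moved in APAP arrays only, and leaving out dim genes called 110, with 62 lower. Quantile normalization called 60 higher, and a mean-variance trend called 58 lower. With at least 2-fold as a further condition 5 genes remained, 5 higher and 0 lower, 3 of them moved in APAP arrays only. Deviations of same-numbered arrays from their group means correlated at -0.161 to 0.319 over 18 pairs, 7 above 0.1. APAP and control at 2 h correlated in all 3 pairs (0.231 to 0.319), and at 24 h in 1 of 3 above 0.1 (-0.083 to 0.166). The labels do not state a pairing. All 71 genes were among those called with each block. With arrays left out, the count ran from 0 to 66, the higher genes from 0 to 32, the lower genes from 0 to 40, and the genes moved in APAP arrays only from 0 to 60. Without number 30 none was called, with 1058 at an unadjusted p under 0.05. On the 12 arrays alone 69 were called, 42 of them shared. The cause of these changes was not tested.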

Other observations

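The following lists had no called gene. Over all genes 4.05% were higher and 5.41% lower at an unadjusted p under 0.05. Of 57 mitosis genes 0 were called and 6 were higher at an unadjusted p under 0.05. Against control at 24 h 19 of them were lower, beside 5.97% of all genes. Of 19 circadian clock genes 0 were called and 5 were higher without adjustment. Of 27 genes of glycolysis and hypoxia 0 were called, with 5 lower and 1 higher without adjustment. In the APAP arrays 13 of them fell, beside 9.44% of all genes. Of 21 endoplasmic reticulum chaperones 0 were called and 0 had an unadjusted p under 0.05, with interactions between -0.22 and 0.16. Of 45 respiratory chain genes 0 were called and 3 were lower without adjustment, a share near that over all genes.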
